A study of Mus musculus with 6 samples.

Results

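Tetraspanins are small membrane proteins that gather integrins, immunoglobulin-family proteins, receptors and proteases into ordered patches of the cell surface and of endosomes. They have no enzymatic activity of their own and act through these partners. In blood cells they take part in platelet adhesion and granule release, in lymphocyte receptor complexes and in the sorting of granule and exosome membranes. The 9 genes described here are tetraspanins known from haematopoietic cells: Cd9, Cd37, Cd53, Cd63, Cd81, Cd82, Cd151, Tspan13 and Tspan33. They were chosen by name, with earlier results of these data known. All 9 were among the 25033 gene symbols of the deposited tables, which held 31 tetraspanin genes in all, and all 9 passed the filter on low counts that left 12978 genes for testing.

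RNA was profiled from green fluorescent cells labelled as haematopoietic stem cells (HSCs) and sorted from the marrow of C57BL/6J mice of 6 months. The mice had received HSCs treated with a miR-31-5p inhibitor (3 libraries) or with a control RNA (3 libraries), and both groups share the transplantation, the fluorescent sort, the strain and the age. The labels do not say how the fluorescence was introduced, how long after transplantation the cells were sorted, or whether replicate libraries represent different mice, so p-values cover only the variation among these libraries, part or all of which may be technical. Libraries held 16873188 to 19496200 counts in the inhibitor group and 19866738 to 21245861 in the control group.

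The label was checked against marker genes. Of 11 HSC markers, Hoxb5 was at 0 in every library, Fgd5 had 3 to 10 counts in inhibitor libraries and 0 to 5 in control libraries, and Mecom had 4 to 11 counts in inhibitor libraries and 9 to 15 in control libraries. Kit averaged 406 ± 5.12 CPM (counts scaled to library size) in inhibitor libraries and 402 ± 20.7 CPM in control libraries (SD, n = 3 each), while the neutrophil granule gene Mpo averaged 4315 ± 50.1 CPM in inhibitor and 5202 ± 270.2 CPM in control libraries. Of the 9 HSC markers that were tested, Procr (2.82 ± 0.21 on the log2 scale, inhibitor over control), Slamf1 (1.70 ± 0.16) and Mllt3 (0.41 ± 0.11) were higher in the inhibitor group. Hlf (-0.92 ± 0.17) and Ly6a (-0.41 ± 0.10) were lower, and Kit, Cd34 and Mecom did not pass. Cd48 (-0.35 ± 0.08) was lower too, but its fall is not read here as a loss of HSC transcripts. Summed over the list, HSC markers lay at 950.2 to 976 CPM in inhibitor libraries and 914 to 974 CPM in control libraries. Kit and Cd34, followed by Cd48, were the largest parts of these sums, which thus say little about the other markers. Monocyte sums were lower (2736 to 2795 CPM in inhibitor and 4064 to 4134 CPM in control libraries). Neutrophil sums were lower too (5729 to 5877 CPM in inhibitor and 6445 to 7307 CPM in control). Of 7 monocyte markers 1 was higher and 2 lower, and of 10 neutrophil markers 5 were higher and 4 lower. Dendritic cell sums were higher (1089 to 1115 CPM in inhibitor and 826 to 939 CPM in control), but of 9 markers 4 were higher and 3 lower. Cd74 rose by 0.69 ± 0.06, while Ccr9 fell by -2.78 ± 0.17. Hoxb5, Fgd5 and Mecom were thus at or near 0, and Procr had only 19 to 25 counts in control libraries. Kit and Cd34 were abundant in both groups, and the markers that passed moved in both directions. In these bulk samples, fewer cells of a type and less RNA per cell cannot be told apart.

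Mature miR-31-5p binds transcripts through its seed, bases 2 to 8 of the microRNA, which stand in capitals here and whose complement in a transcript reads TCTTGCC. The RefSeq sequence (GRCm38.p6, chr4:88910614-88910635, minus strand) is printed because it is the molecule the inhibitor is directed against.
miR-31-5p: aGGCAAGAugcuggcauagcug

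None of the 9 genes had that 7-letter match in the 3′ UTR (GENCODE M21, mm10, longest 3′ UTR among RefSeq-matched transcripts), against 12.6% of the 12254 tested genes with an annotated 3′ UTR. The shorter 6-letter match CTTGCC, found in 34.6% of those genes, occurred 5 times in 4 of the 9 genes. These sites are shown with the match in capitals, in the sense of the transcript, because they are the closest matches to the seed that the group holds.
Cd81, chr7:143067682-143067709: ctctacagctaCTTGCCcagaggctttg
Cd151, chr7:141470930-141470957: gaagcagcgtaCTTGCCccagcattaag
Cd151, chr7:141471188-141471215: tctcagatctgCTTGCCccaaacaaatg
Tspan13, chr12:36014911-36014938: tatgtaaacaaCTTGCCgtcaatacatt
Tspan33, chr6:29718195-29718222: tttaccaaatgCTTGCCtagccgcactc

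Of these 4 genes, Cd151 and Tspan33 rose in the inhibitor group and Cd81 and Tspan13 did not pass the test, as described in the following paragraphs. Cd9, the member with the largest change, had neither match in its 395-base 3′ UTR. A match is a stretch of letters and not a measured site of binding.

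The question addressed was whether tetraspanin transcripts differed in cells derived from HSCs given the miR-31-5p inhibitor. Cd9 rose 2.19-fold and Tspan33 1.90-fold, Cd151 (1.21-fold) and Cd63 (1.14-fold) rose by less, and Cd37, Cd53, Cd81, Cd82 and Tspan13 did not pass the test. Of the 9 genes, 4 passed the test, against 40.5% of all tested genes in either direction. All 4 were higher in the inhibitor group, where 20.4% of all tested genes were called higher. No member was called lower by edgeR, DESeq2 or limma-voom, where edgeR called 20.1% of all tested genes lower, and 1 member (Cd53) had an unadjusted p under 0.05 in that direction. The median log2 change was 0.08 over the members and -0.01 over all tested genes. The inhibitor and control libraries did not overlap in 5 of the 9 genes, against 52.4% of all tested genes. Levels are CPM scaled by TMM factors, changes are log2 of inhibitor over control with their SE, and a gene passed at a Benjamini-Hochberg adjusted p under 0.05 in edgeR's quasi-likelihood test.

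Cd9 encodes a tetraspanin abundant on megakaryocytes and platelets that associates with integrins and, in mouse eggs, is required for fusion with sperm. The gene lies on mm10 chromosome 6, from 125460266 to 125494760. It had 10813, 9145 and 9392 counts in inhibitor libraries 1 to 3, against 5174, 4989 and 5162 counts in control libraries 1 to 3. Scaled to library size these were 555, 534 and 555 CPM in inhibitor libraries, against 259.8, 249.3 and 243 CPM in control libraries. Every inhibitor library lay far above every control library, and within each group the libraries lay close together. The rise was 2.19-fold, a log2 change of 1.13 ± 0.05 with a 95% interval of 1.01 to 1.24 (edgeR quasi-likelihood test, Benjamini-Hochberg adjusted p = 2.81e-10). It was the only member to reach 2-fold, a size of rise that 5.37% of all tested genes reached with a call. Its coefficient of variation was 2.25% in inhibitor and 3.45% in control libraries, where counting alone gives 1.01 and 1.4%. The annotated long non-coding RNA genes Gm28809 and Gm26728 overlap Cd9, and because the sources do not state whether counting used strand, their reads cannot be told apart from those of Cd9.

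Markers of megakaryocytes and platelets moved with Cd9. All 14 markers on that list were tested and were higher, with summed levels of 4535 to 4650 CPM in inhibitor libraries and 1941 to 2222 CPM in control libraries, and none was at 0. Their part in the rise of Cd9 was not tested. The 3 genes whose log2 CPM, centred over the 6 libraries, lay nearest to that of Cd9 were Dusp6, Igtp and Rab27b, with root mean square distances of 0.0407, 0.0417 and 0.0419. Dusp6 encodes a MAP kinase phosphatase, Igtp an interferon-inducible GTPase and Rab27b a small GTPase of granule and exosome release. With 6 libraries in 2 groups, this likeness describes mainly a shared size of change between the groups.

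Cd63 encodes the tetraspanin of late endosomes, lysosomes and secretory granules, which reaches the surface of platelets and basophils when their granules fuse with the plasma membrane. On chromosome 10, from 128896231 to 128912822, it had 346, 352 and 355 CPM in inhibitor libraries 1 to 3, against 335, 293 and 296 CPM in control libraries 1 to 3. Control library 1 lay only just under the lowest inhibitor library, and the other controls lay further down. The rise was 1.14-fold, or 0.19 ± 0.06 on the log2 scale with a 95% interval of 0.06 to 0.32 (edgeR quasi-likelihood test, Benjamini-Hochberg adjusted p = 0.0208). This call was lost without control library 2 or 3 (log2 changes of 0.16 and 0.16) and without inhibitor library 1, 2 or 3 (0.20, 0.19 and 0.18), with Benjamini-Hochberg adjusted p in edgeR's test of 0.0552 to 0.0898. It held without control library 1, where the change was 0.25, and without control libraries 1 and 3 together, where it was 0.26. Basophil and mast cell markers did not move as 1 group beside it: 2 of 8 passed as higher and 2 as lower, with sums of 1305 to 1407 CPM in inhibitor libraries and 1249 to 1285 CPM in control libraries.

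Cd151 encodes the tetraspanin that binds the laminin receptors alpha 3 beta 1 and alpha 6 beta 1 integrin, and it also associates with the platelet integrin alpha IIb beta 3. Its locus is on chromosome 7, from 141467362 to 141471481. Levels were 34.4, 35.4 and 34.2 CPM in inhibitor libraries 1 to 3, against 30.3, 26.8 and 28.5 CPM in control libraries 1 to 3. All inhibitor libraries lay above all controls. The rise was 1.21-fold, 0.28 ± 0.08 on the log2 scale with a 95% interval of 0.10 to 0.45 (edgeR quasi-likelihood test, Benjamini-Hochberg adjusted p = 0.0131). Without inhibitor library 2 it was 0.26 and no longer passed (Benjamini-Hochberg adjusted p = 0.0543 in edgeR's test). The long non-coding RNA gene Gm10575 overlaps the locus and held 6 to 14 counts.

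Tspan33 was described in mouse erythroid progenitors under the name Penumbra, and its protein belongs to the TspanC8 subgroup that escorts the metalloprotease ADAM10 to the cell surface. The gene, on chromosome 6 from 29694214 to 29718558, was the least abundant member, with 186, 151 and 123 counts in inhibitor libraries 1 to 3, against 102, 79 and 94 counts in control libraries 1 to 3. These corresponded to 9.55, 8.81 and 7.27 CPM in inhibitor libraries, against 5.12, 3.95 and 4.42 CPM in control libraries. The groups did not overlap, and inhibitor library 3 lay nearest to the controls. The rise was 1.90-fold, 0.93 ± 0.16 on the log2 scale with a 95% interval of 0.59 to 1.27, so its size is less precisely known than that of Cd9 (edgeR quasi-likelihood test, Benjamini-Hochberg adjusted p = 0.000317). Erythroid markers also differed. Of 11 listed, 5 were tested and 4 of these were higher, with sums of 18.7 to 21.4 CPM in inhibitor libraries and 5.97 to 7.68 CPM in control libraries. Rhag was at 0 in all inhibitor libraries and Slc4a1 at 0 in all control libraries, while the erythroid transcription factor gene Klf1 had 1 to 10 counts in inhibitor and 12 to 19 in control libraries. The part of erythroid transcripts in the change of Tspan33 was not tested.

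**Figure D1:**
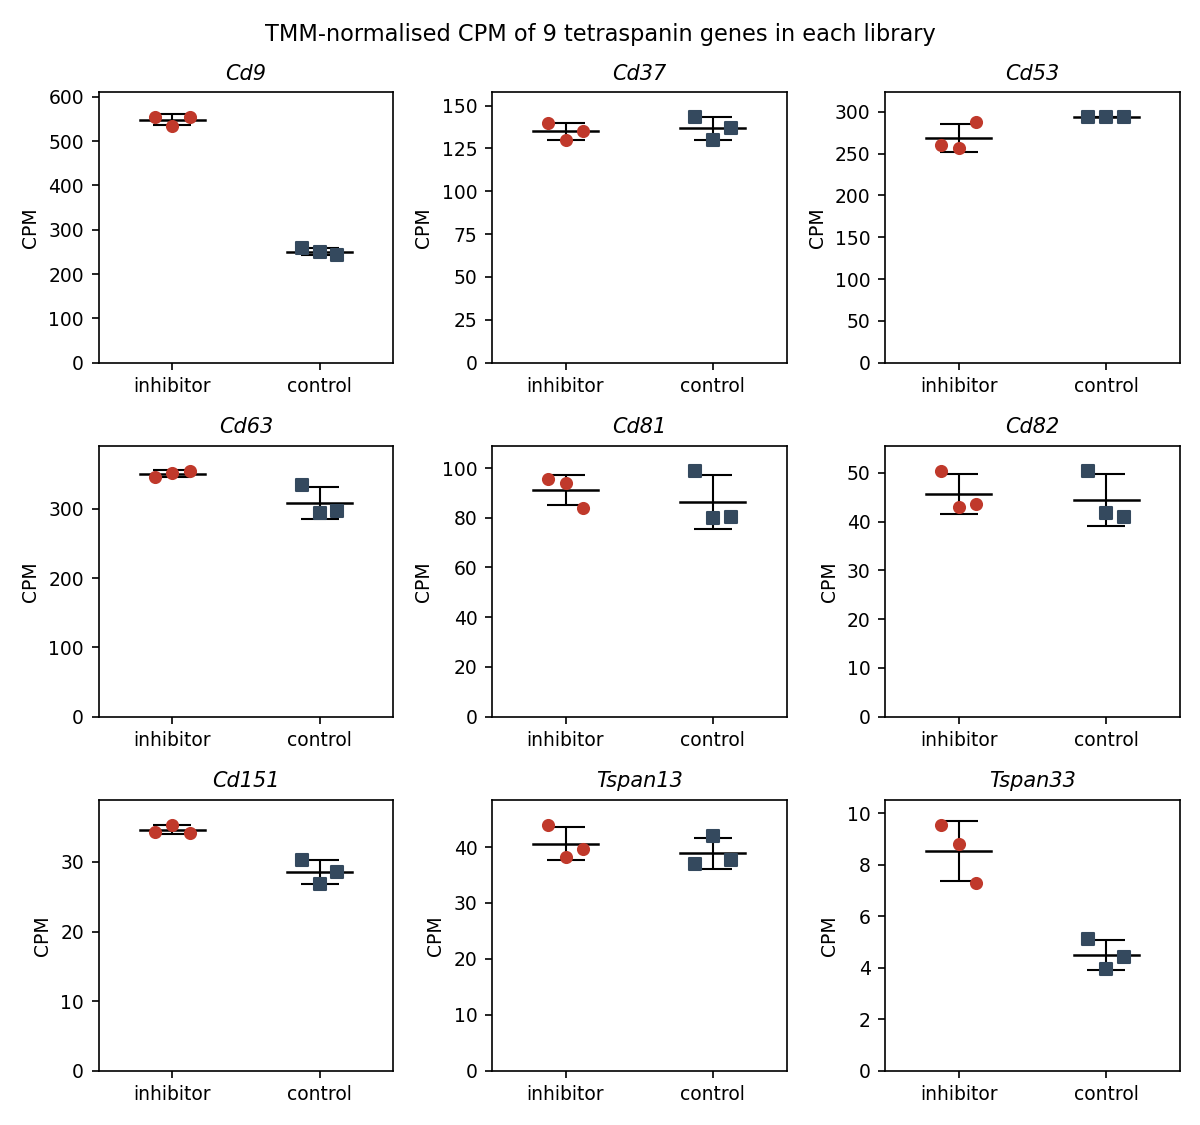
TMM-normalised CPM of the 9 genes (vertical axes, each from 0), with 1 point per library, the inhibitor libraries at the left and the control libraries at the right of each panel, a line for the mean and bars for the SD (n = 3 each). Cd9 and Tspan33 show the widest gaps between groups, at means of 548 against 251 CPM and 8.54 against 4.50 CPM, while the points of Cd37, Cd81, Cd82 and Tspan13 overlap.

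Cd53, a tetraspanin of nearly all leukocytes that stabilises L-selectin on mouse lymphocytes, was the only member whose inhibitor libraries all lay below the controls. It had 261, 257 and 288 CPM in inhibitor libraries 1 to 3, against 293.5, 294.2 and 293.3 CPM in control libraries 1 to 3. The control libraries agreed more closely than counting noise would give on average (chi-square per degree of freedom of 0.0175), and inhibitor library 3 lay close to them. The log2 change was -0.13 ± 0.06 with a 95% interval of -0.25 to -0.01 and did not pass (edgeR quasi-likelihood test, Benjamini-Hochberg adjusted p = 0.0832). It passed without control library 1 (-0.13) and without inhibitor library 3 (-0.18), with Benjamini-Hochberg adjusted p of 0.0178 and 0.0415 in edgeR's test. The gene lies on chromosome 3, from 106758861 to 106790149.

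Cd37, a tetraspanin of mature B cells and other leukocytes that binds the phosphatase SHP-1, had 139.9, 130.1 and 135 CPM in inhibitor libraries 1 to 3, against 144, 129.7 and 137 CPM in control libraries 1 to 3. The groups covered the same range. Its log2 change was -0.02 ± 0.06 with a 95% interval of -0.14 to 0.11. B cell markers were scarce, and Ms4a1 had at most 2 counts in any library. Of 4 tested B cell markers 3 were lower, and the list of 10 summed to 22.4 to 23.7 CPM in inhibitor libraries and 30.5 to 34.6 CPM in control libraries.

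Cd81, a widely expressed tetraspanin that serves hepatitis C virus as a receptor in human cells, had 95.5, 93.8 and 84.1 CPM in inhibitor libraries 1 to 3, against 99.0, 79.8 and 80.2 CPM in control libraries 1 to 3. Control library 1 stood above every inhibitor library and the other controls below them. The log2 change was 0.08 ± 0.08, with a 95% interval of -0.10 to 0.26, and did not pass with all libraries (edgeR quasi-likelihood test, Benjamini-Hochberg adjusted p = 0.478). Without control library 1 it was 0.19 and passed (Benjamini-Hochberg adjusted p = 0.00679 in edgeR's test). The long non-coding RNA gene R74862 overlaps Cd81 and had 28 to 48 counts.

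Cd82, known as the metastasis suppressor KAI1 and for keeping mouse HSCs quiescent, had 50.4, 43.1 and 43.7 CPM in inhibitor libraries 1 to 3, against 50.5, 41.8 and 40.9 CPM in control libraries 1 to 3. Library 1 of each group was the high one. Its log2 change was 0.04 ± 0.09 with a 95% interval of -0.15 to 0.24. Tspan13, a less studied member, had 44.0, 38.3 and 39.6 CPM in inhibitor libraries 1 to 3, against 36.9, 42.0 and 37.7 CPM in control libraries 1 to 3. Its groups overlapped too, and the log2 change was 0.07 ± 0.08 with a 95% interval of -0.11 to 0.24.

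Control library 1 was the highest control for 7 of the 9 genes, all but Cd53 and Tspan13, for 13 of the 21 tested tetraspanins and for 43.5% of all tested genes. Inhibitor library 1 was the highest inhibitor library for 6 of the 9 genes and for 33.9% of all tested genes. For Cd81 and Cd63, chi-square per degree of freedom (about 1 under counting noise alone, and larger for abundant genes at a given relative spread) was 7.2 and 1.23 among inhibitor libraries and 27.9 and 35.2 among control libraries. In relative terms, control libraries spread most for Tspan33, Cd81 and Cd82, with coefficients of variation of 13.1, 12.7 and 11.8%, against 7.53% for Cd63. The ribosomal RNA precursor Rn45s took 0.0106 to 0.0161% of counts in inhibitor libraries, against 0.0991, 0.0185 and 0.29% in control libraries 1 to 3. Without control libraries 1 and 3 together, 4 members were called higher, as with all libraries. What sets control library 1 apart was not tested.

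**Figure D2:**
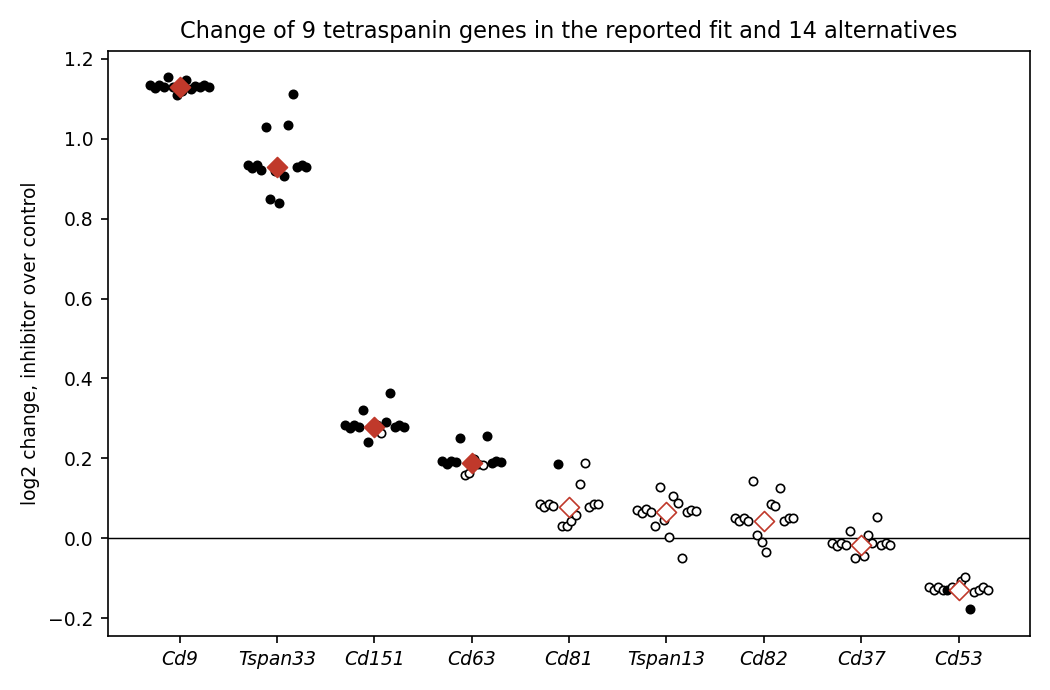
Log2 change of inhibitor over control (vertical axis) for each of the 9 genes (horizontal axis) in the reported fit (diamonds) and in 14 alternatives (circles), filled where the adjusted p was under 0.05. Cd9 stays between 1.11 and 1.15 and Tspan33 between 0.84 and 1.11, filled throughout, while Cd63 and Cd151 have open circles and Cd53 and Cd81 filled ones.

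Levels of different genes were set side by side per kilobase of transcript, as the deposited RPKM. Library totals implied by RPKM exceeded summed counts by up to 8.68% in control and 0.346% in inhibitor libraries. RPKM means of a gene are therefore not compared between groups, and changes are read from CPM. In inhibitor libraries Cd9 was the most abundant of the 31 listed tetraspanins, at 457 ± 10.02 RPKM, and Cd63 came next, at 373 ± 6.23 RPKM (SD, n = 3). In control libraries Cd63 came first, at 315 ± 25.5 RPKM, and Cd9 next, at 201 ± 12.5 RPKM (SD, n = 3). The ratio of Cd9 to Cd63 RPKM within a library, which does not depend on scaling between libraries, was 1.26, 1.19 and 1.23 in inhibitor libraries 1 to 3, against 0.609, 0.667 and 0.643 in control libraries 1 to 3. In every inhibitor library Cd9 thus stood above Cd63, and in every control library below it. A two-sided exact permutation test of the log2 ratio gave p = 0.1, the smallest that 3 against 3 libraries allow. That value follows from the full separation of the groups and adds nothing to it.

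Below these came Cd37 (110 ± 3.79 RPKM in inhibitor and 107 ± 4.80 RPKM in control libraries) and Cd53 (95.8 ± 6.21 RPKM in inhibitor and 101 ± 4.42 RPKM in control libraries), which overlapped in the control libraries and not in the inhibitor libraries. Cd81 followed at 59.9 ± 3.89 RPKM in inhibitor and 54.6 ± 7.07 RPKM in control libraries. Cd82 had 24.9 ± 2.16 RPKM in inhibitor and 23.3 ± 2.92 RPKM in control libraries. Tspan13, at 21.1 ± 1.502 RPKM in inhibitor and 19.4 ± 2.12 RPKM in control libraries, overlapped with Cd82 in the control libraries, and Cd151 lay at 19.4 ± 0.37 RPKM in inhibitor and 15.3 ± 0.81 RPKM in control libraries. Tspan33 was lowest by a wide gap, at 4.26 ± 0.57 RPKM in inhibitor and 2.15 ± 0.26 RPKM in control libraries. The other neighbours in this order did not overlap between libraries of a group. Cd9 made up 38.9 to 39.4% of the RPKM summed over the 9 genes in inhibitor libraries and 23.4 to 24.6% in control libraries. The summed level of the 9 genes, compared between libraries as TMM-scaled CPM, was 1493 to 1542 CPM in inhibitor libraries and 1161 to 1254 CPM in control libraries.

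**Figure D3:**
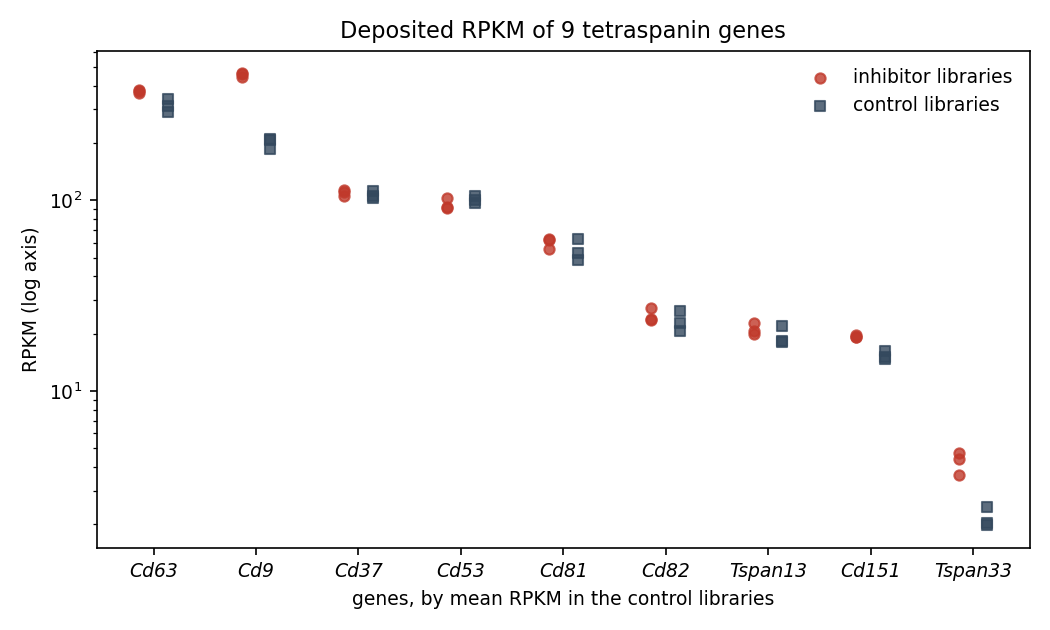
Deposited RPKM of the 9 genes on a log axis, 1 point per library, inhibitor libraries as circles left of the control libraries as squares, with genes ordered by their mean in the control libraries. Cd9 in inhibitor libraries, at a mean of 457 RPKM, lies above all values of Cd63, whereas in control libraries, at 201 RPKM, it lies below them.

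The rest of the family was described from a list of 23 other tetraspanin genes, of which 22 were listed and 12 tested. The test called 5 of the 12 higher in the inhibitor group and 3 lower, against 20.4 and 20.1% of all tested genes. The median log2 change of the 12 was 0.14. Tspan9, which encodes a tetraspanin of platelets, rose most among those above 10 CPM: 57.5, 53.8 and 52.8 CPM in inhibitor libraries 1 to 3, against 18.2, 15.4 and 16.1 CPM in control libraries 1 to 3, a log2 change of 1.73 ± 0.09 (edgeR quasi-likelihood test, Benjamini-Hochberg adjusted p = 4.45e-10). Tspan7, a gene mutated in human X-linked intellectual disability, had 23, 24 and 28 counts in inhibitor libraries and 2, 5 and 5 in control libraries, a change of 2.80 ± 0.45. Tspan3 rose by 0.47 ± 0.06, and Tspan2 by 0.26 ± 0.09. The call on Tspan2 held without control library 2 and was lost on leaving out any other single library.

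The falls were in Tspan32, a tetraspanin of haematopoietic cells that regulates the platelet integrin alpha IIb beta 3 in mice, in Tspan14 and in Tspan4, known for its part in migrasomes. Tspan32 averaged 66.5 ± 1.03 CPM in inhibitor and 82.3 ± 6.71 CPM in control libraries (SD, n = 3 each), a log2 change of -0.31 ± 0.07. Tspan4 changed by -0.39 ± 0.12, and its call was lost without control library 1 (-0.32), inhibitor library 2 (-0.36) or inhibitor library 3 (-0.26). Tspan31, per kilobase (RPKM) the most abundant tetraspanin outside the members, averaged 94.8 ± 5.73 CPM in inhibitor and 93.5 ± 3.63 CPM in control libraries and did not pass. Tspan5, Tspan6 and Rom1 did not pass either, and Rom1 passed without inhibitor library 2 (0.60). The 9 members made up 81.0 to 82.0% of the RPKM of all listed tetraspanins in inhibitor libraries and 76.4 to 76.8% in control libraries.

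The 7-letter seed match was present in the 3′ UTR of 4 of these 12 genes, against 12.6% of tested genes with an annotated 3′ UTR. They were Tspan4, Tspan5, Tspan9 and Tspan31, of which Tspan9 rose, Tspan4 fell and the others did not pass. Length was not allowed for. The 3′ UTR has 5461 bases in Tspan5, 3032 in Tspan9, 836 in Tspan31 and 474 in Tspan4, and at most 1141 in the members. The longest transcript length deposited for Tspan5 is 3104 bases. Its matches, at 3′ UTR positions 4442 and 5404, lie beyond that length. The sites of the gene that rose and of the gene that fell are printed with the match in capitals.
Tspan9, chr6:127963046-127963074: aggccaagcagTCTTGCCaacactgatac
Tspan4, chr7:141493383-141493411: cagactgtgggTCTTGCCaacacacaaag

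**Figure D4:**
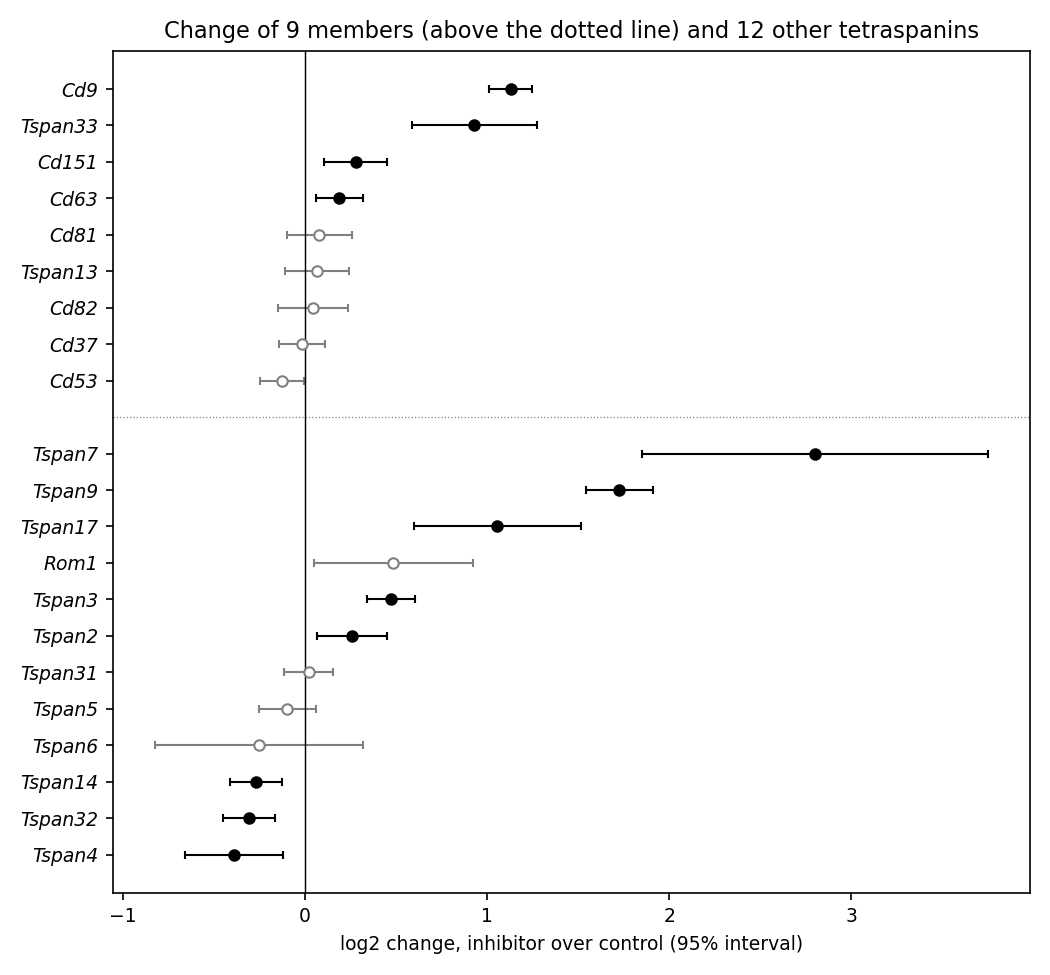
Log2 change of inhibitor over control with its 95% interval (horizontal axis) for the 9 members above the dotted line and the 12 other tested tetraspanins below it, filled where the adjusted p was under 0.05. The members range from -0.13 for Cd53 to 1.13 for Cd9, and the others from -0.39 for Tspan4 to 2.80 for Tspan7.

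Tspan33 shares the role of ADAM10 partner with 5 other TspanC8 genes, and these did not all move one way. Tspan17 rose, with 10.99, 10.8 and 6.62 CPM in inhibitor libraries 1 to 3, against 5.82, 3.60 and 4.28 CPM in control libraries 1 to 3 (log2 change 1.06 ± 0.21). Tspan14 fell, averaging 101 ± 4.04 CPM in inhibitor and 121 ± 10.8 CPM in control libraries (-0.27 ± 0.07). Tspan5 did not pass, at -0.10 ± 0.07, and Tspan10 and Tspan15 had at most 7 counts in a library. Per kilobase, Tspan14 remained the most abundant of the 6, at 40.1 ± 1.55 RPKM in inhibitor and 46.5 ± 4.34 RPKM in control libraries. Summed over the 6 genes, TspanC8 levels were 160 to 179 CPM in inhibitor libraries and 175 to 203 CPM in control libraries, which overlap. Adam10 itself, the sheddase of Notch and other surface proteins, averaged 320.4 ± 6.84 CPM in inhibitor and 248 ± 4.49 CPM in control libraries and rose by 0.37 ± 0.05 (edgeR quasi-likelihood test, Benjamini-Hochberg adjusted p = 4.58e-05).

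Partners of tetraspanins were described from a list of 46 genes, of which 43 were tested. In the inhibitor group 18 were higher and 8 lower, with a median log2 change of 0.13, against 20.4 and 20.1% of all tested genes. Of 9 integrin chains tested, 6 were higher and 3 did not pass. Itgb3 and Itga2b, the chains of the platelet fibrinogen receptor with which CD9 and CD151 associate, rose by 1.23 ± 0.05 and 1.08 ± 0.09. Itga6, a laminin receptor chain bound by CD151, rose by 0.67 ± 0.05, and the collagen receptor chain Itga2 by 0.97 ± 0.10. The alpha 3 chain gene Itga3 was too low to be tested.

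Of 6 tested immunoglobulin-family and other membrane partners, 2 were higher and 3 lower. The EWI proteins, which bind CD9 and CD81 directly, moved in opposite directions. Igsf8, which encodes EWI-2, had 45.4, 41.6 and 37.3 CPM in inhibitor libraries 1 to 3, against 57.8, 50.7 and 57.0 CPM in control libraries 1 to 3, a log2 change of -0.41 ± 0.08. Ptgfrn, which encodes EWI-F, was scarcer, at 2.71 ± 0.95 CPM in inhibitor and 1.196 ± 0.19 CPM in control libraries, and rose by 1.17 ± 0.30, though not without control libraries 1 and 3 together (0.94). Igsf3 rose by 1.89 ± 0.29, and Ifitm2, an interferon-induced membrane protein gene, fell (-0.40 ± 0.08).

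Among 6 metalloprotease and substrate genes, Mmp14 (0.89 ± 0.10) and Adam10 were higher and Notch1 (-0.28 ± 0.07) and Adam17 (-0.19 ± 0.05) lower. The fall of Adam17 was -0.16 and not called without control library 3. Of 3 scavenger, lectin and adhesion receptor genes, Cd36, a platelet and macrophage scavenger receptor that associates with CD9, had 105, 101 and 113 CPM in inhibitor libraries 1 to 3, against 27.5, 31.9 and 32.0 CPM in control libraries 1 to 3. Cd36 rose by 1.80 ± 0.08, while the hyaluronan receptor gene Cd44 (0.12 ± 0.06) and the fungal receptor gene Clec7a (-0.05 ± 0.12) did not pass. Of 6 signalling genes, the protein kinase C genes Prkca (1.07 ± 0.06) and Prkcb (0.30 ± 0.07) were higher, and Ptpn6, which encodes the CD37 partner SHP-1, was lower (-0.43 ± 0.05). Pi4k2a, a lipid kinase gene, did not pass at -0.15 ± 0.07.

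Endosome and exosome genes, the surroundings of CD63, were mixed. The test called 5 of 13 higher and 2 lower, against 20.4 and 20.1% of all tested genes, and their median log2 change was 0.09. Rab27b had 364, 363 and 363 CPM in inhibitor libraries 1 to 3, against 164, 168 and 167 CPM in control libraries 1 to 3, and rose by 1.13 ± 0.05, whereas its relative Rab27a was lower (-0.20 ± 0.06). The exosome gene Pdcd6ip, which encodes ALIX, rose by 0.42 ± 0.06, the clathrin adaptor gene Ap2m1 by 0.33 ± 0.05 and Ap3b1, a chain of the AP-3 adaptor that sorts CD63 to lysosomes, by 0.31 ± 0.06. The other AP-3 chains did not follow it: Ap3s1 was lower (-0.26 ± 0.06), and Ap3d1 (0.05 ± 0.05) and Ap3m1 (0.03 ± 0.07) did not pass. Lamp1 and Lamp2, the other abundant lysosomal membrane proteins, had log2 changes of 0.09 ± 0.05 and 0.04 ± 0.06 and did not pass, beside 0.19 ± 0.06 for Cd63.

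**Figure D5:**
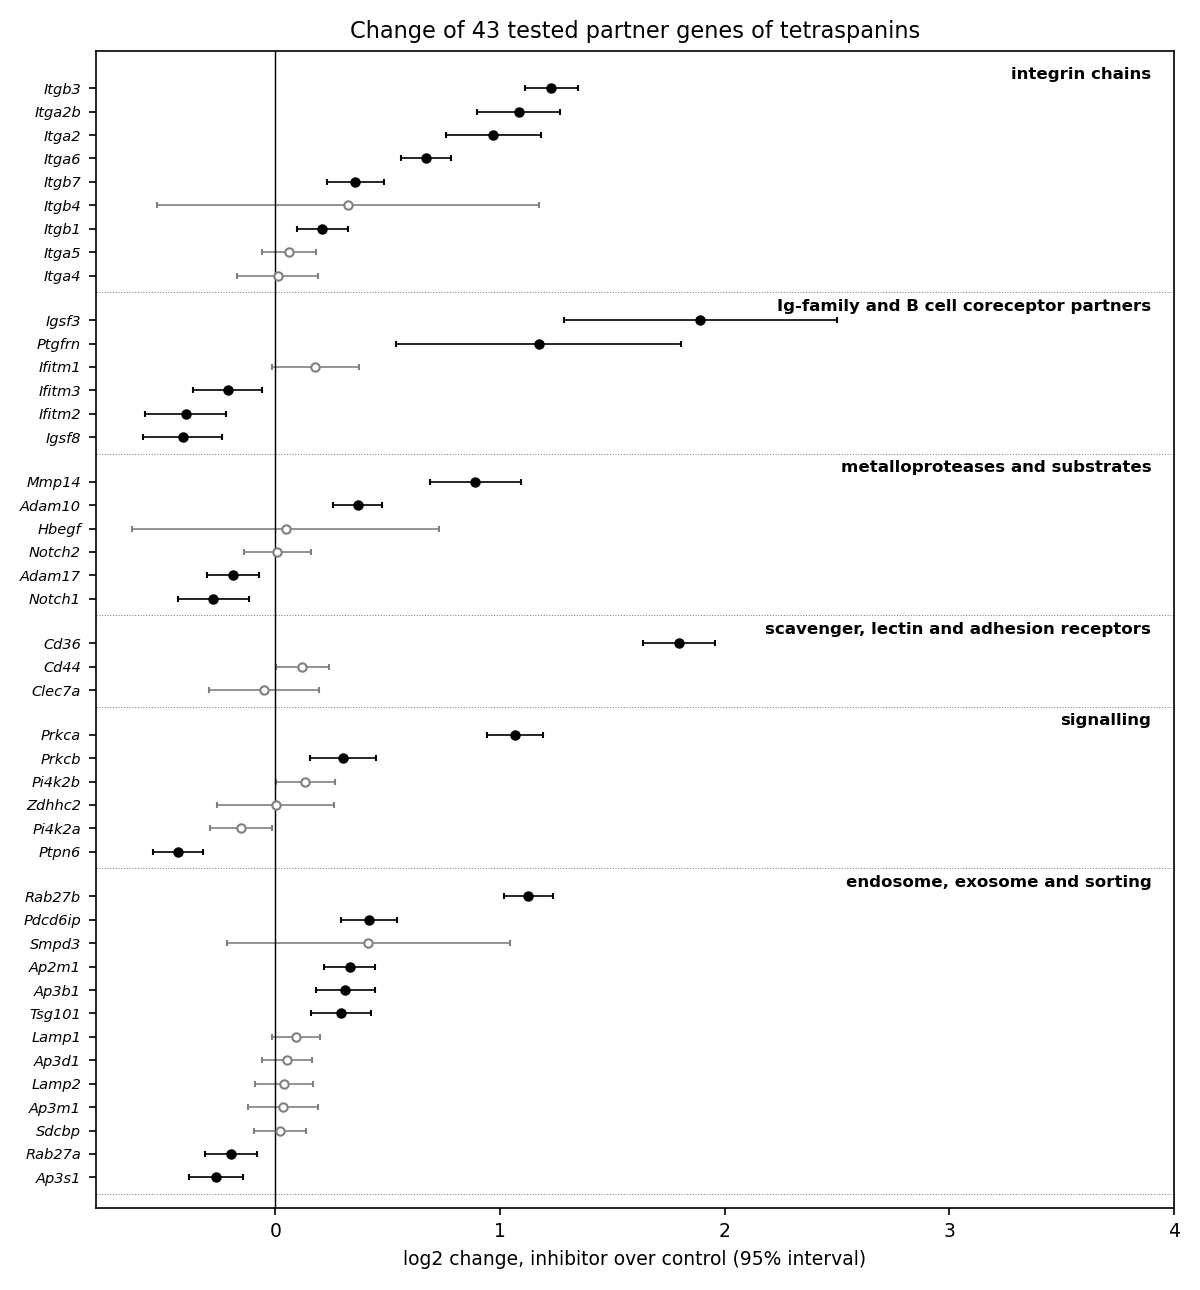
Log2 change of inhibitor over control with its 95% interval (horizontal axis) for the 43 tested partner genes by group, filled where the adjusted p was under 0.05. Integrin chains lie at or above 0, up to 1.23 for Itgb3, while the other groups hold members on both sides or near 0.

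The promoters of the members were searched for short motifs as a planned description. RefSeq windows from 250 bases before to 50 after a start of transcription (GRCm38.p6) were available for all 9 genes, 13 windows in all. Searched on both strands, the GATA motif AGATAA and the ETS motif CCGGAAG occurred in 0 of the 13, against 11.2 and 8.86% of all 32851 promoter windows. The antioxidant response motif TGACNNNGC occurred in 1, a window of Cd82, and the E-box CACGTG in 1, that of Cd37, against 12.4 and 7.15% of all windows. The GC box GGGCGG, added after the sequences were seen, occurred in 8 of the 13 windows and 7 of the 9 genes, against 35.7% of all windows. The windows of Cd9 and Tspan33, the members that changed most, are printed in the sense of transcription with GC boxes on either strand in capitals.
Cd9, chr6:125494711-125495010, minus strand: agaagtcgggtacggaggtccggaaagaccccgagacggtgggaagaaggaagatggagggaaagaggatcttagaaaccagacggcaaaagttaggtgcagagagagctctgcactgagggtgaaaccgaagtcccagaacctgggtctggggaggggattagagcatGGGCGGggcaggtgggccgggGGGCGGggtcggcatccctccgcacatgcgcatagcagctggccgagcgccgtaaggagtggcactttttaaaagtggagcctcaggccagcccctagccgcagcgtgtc
Tspan33, chr6:29693964-29694263, plus strand: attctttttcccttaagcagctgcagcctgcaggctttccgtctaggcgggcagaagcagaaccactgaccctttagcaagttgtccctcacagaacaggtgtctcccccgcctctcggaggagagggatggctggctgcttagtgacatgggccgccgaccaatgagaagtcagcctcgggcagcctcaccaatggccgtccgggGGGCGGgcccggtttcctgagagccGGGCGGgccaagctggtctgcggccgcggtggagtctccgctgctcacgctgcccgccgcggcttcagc

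Each of these windows held 2 GC boxes and none of the other motifs. A match describes letters and not a bound factor, and the absence of a match says only that these letters are not in this window.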

How the data were processed

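Read counts per RefSeq gene symbol, not normalised, and RPKM values, which divide counts by the longest transcript length and a library total, were deposited by the authors for each of the 6 libraries. The submitters' processing notes name bcl2fastq 2.20 and mm10. RNA was extracted with Trizol and libraries were made with an mRNA kit, per the labels' protocols. The sources used here give no aligner, counting tool or strand setting.

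Counts were filtered with filterByExpr (minimum count 10, minimum total 15), normalised with TMM (0.985 to 1.008 as scaling factors), and groups were compared by the quasi-likelihood test of edgeR 4.0.16, with robust fitting, under R 4.3.3. P-values were adjusted by Benjamini-Hochberg over all 12978 genes, with a threshold of 0.05, and 3 counts corresponded to 0.141 to 0.178 CPM. The script was tested on simulated data, where it recovered 146 of 200 changed genes and made 13 false calls. The simulated share of changed genes was far below the 40.5% called here. Every simulated fold was larger than those of Cd63 and Cd151, so the simulation says nothing about changes of that size. Library totals implied by RPKM exceeded summed counts by 0.22 to 0.346% in inhibitor and 0.492 to 8.68% in control libraries, so RPKM was used to order genes within libraries. The members, lists and tests were chosen with earlier results of these data known. Named genes were all members, other tetraspanins that passed or reached 10 CPM, and up to 4 genes of each partner group by smallest p. Tspan6, Tspan10, Tspan15, Rom1, Itga3, Rab27a, Ap3s1, Ap3d1, Ap3m1, Lamp1, Lamp2 and the marker genes were named after their values were seen. Alternatives were RLE factors, other filters, a replicate block, left-out libraries, scaling without abundant genes, DESeq2 1.42.0 and limma-voom (limma 3.58.1). Seed matches and motifs were searched with Python 3.11.15.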

Additional observations from a re-analysis of the deposited data

How the results depend on the processing

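The rises of Cd9 and Tspan33 passed in all 14 alternatives, with log2 changes of 1.11 to 1.15 and 0.84 to 1.11. On leaving out 1 library at a time, 2 to 5 members were called higher and 0 to 1 lower. The log2 changes then covered 0.16 to 0.25 for Cd63, 0.24 to 0.32 for Cd151, -0.18 to -0.10 for Cd53, 0.0298 to 0.19 for Cd81, -0.0490 to 0.0177 for Cd37, -0.0339 to 0.14 for Cd82 and -0.0177 to 0.0643 for Tspan31, with the sign of Cd37, Cd82 and Tspan31 turning. Without control libraries 1 and 3 together, which leaves 1 control assumed to vary like the other libraries, Cd37 (0.0541), Tspan13 (-0.0491) and Tspan5 (0.00919) had the opposite sign, none of them called with or without these libraries, and Tspan2 (0.10) and Tspan4 (-0.34) lost their calls. RLE factors, both other filters, scaling without abundant genes, DESeq2 and limma-voom changed no call among the members. Same-numbered libraries of the groups hardly deviated together (correlations of 0.0576, 0.00818 and 0.0366). With 3 libraries per group and no pairing given in the labels, this cannot decide whether equal numbers mark paired samples. With the replicate block, 4 members were higher, as without it, and no member's call changed. Over all tested genes, 2831 were called higher and 2842 lower with the block, against 2646 and 2613 without it. With 3 libraries per group, changes of the size seen for Cd63 and Cd53 lay at the limit of what passes.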
